A study of Mus musculus with 8 samples.

Results

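The 6 actin genes of the mouse were examined in microarray data from whole aorta after deletion of the gene of serum response factor (SRF) in smooth muscle cells. Acta2, Actg2, Acta1, Actc1, Actb and Actg1 were each annotated, alone, to at least 1 probe set, and together to 9 of the 45037 probe sets in the deposited table. Acta2 had 3 probe sets, Actb had 2, and each of the other 4 genes had 1. All 9 passed the filter on dim probe sets, which left 27029 for testing. The control group was 4 arrays from SRF-flex2neo littermates, and the mutant group 4 arrays from SRF-flex2neo -SM22CreERT2ki/+ mice. SM22 is the protein of the Tagln gene, so the tamoxifen-inducible Cre sits in a gene of smooth muscle, and the other cells of the aortic wall are not its target. All mice were 4 months old, were given 1 mg of tamoxifen intraperitoneally for 3 days, and were killed 8 days after the injection. The array titles name 2 sets, each with 2 control and 2 mutant arrays: set 1 holds controls 1 and 2 and mutants 1 and 2, set 2 the rest. No source used here says what the sets are or whether each array had a mouse of its own. The p-values therefore rest on the variation among these 8 arrays, part or all of which may be technical.

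Actins are globular proteins that polymerize into thin filaments. Acta2 encodes the actin that dominates vascular smooth muscle, and Actg2 the second smooth muscle actin, best known from gut and bladder. Acta1 and Actc1 encode the main actins of skeletal muscle and heart, and Actb and Actg1 the cytoplasmic actins found in nearly all cells. SRF binds a short DNA element called the CArG box together with myocardin or the myocardin-related factors. The myocardin-related factors in turn are held back by free actin monomers. Muscle actin genes are classical targets of this system.

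Promoter sequences were available in the RefSeq table for 4 of the 6 genes, Acta2, Acta1, Actc1 and Actg1, and they are shown because the CArG box is the element through which SRF acts on these genes. The box was searched as CC, then 6 bases that are A or T, then GG, and also with 1 C or G among the middle 6. Both forms read the same on the other strand. The windows ran from 250 bases before to 50 bases after the annotated start, in build GRCm38.p6. The 250 bases upstream of Acta1 (chr8:123894776-123895025), Actc1 (chr2:114052876-114053125) and Actg1 (chr11:120348496-120348745), all on the minus strand, are given 5′ to 3′ with the boxes in capitals. For Acta2, also on the minus strand, the 30 bases around each of its 2 boxes are given (chr19:34255438-34255467 and chr19:34255388-34255417).
Acta1: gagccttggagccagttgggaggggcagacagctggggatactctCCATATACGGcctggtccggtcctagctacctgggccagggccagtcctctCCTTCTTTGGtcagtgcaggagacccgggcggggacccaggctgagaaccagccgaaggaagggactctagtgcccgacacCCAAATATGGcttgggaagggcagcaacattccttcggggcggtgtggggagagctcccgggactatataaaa
Actc1: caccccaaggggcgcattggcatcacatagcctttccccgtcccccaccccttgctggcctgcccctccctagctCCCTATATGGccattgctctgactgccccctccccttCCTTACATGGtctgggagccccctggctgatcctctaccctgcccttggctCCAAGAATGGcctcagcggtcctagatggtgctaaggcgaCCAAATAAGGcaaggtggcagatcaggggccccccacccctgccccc
Actg1: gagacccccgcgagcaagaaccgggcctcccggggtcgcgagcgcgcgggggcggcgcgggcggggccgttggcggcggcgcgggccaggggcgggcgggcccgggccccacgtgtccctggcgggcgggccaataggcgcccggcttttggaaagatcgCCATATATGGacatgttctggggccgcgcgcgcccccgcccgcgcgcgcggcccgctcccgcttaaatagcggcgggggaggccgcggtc
Acta2, distal box: gtgctgaggtCCCTATATGGttgtgttaga
Acta2, proximal box: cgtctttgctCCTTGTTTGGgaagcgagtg

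Acta1, Actc1 and Actg1 each held 1 exact box, beginning 73, 47 and 90 bases before the start. Acta2 held no exact box but 2 with a single C or G in the middle, beginning 84 and 34 bases before the start. The distal one, CCCTATATGG, occurs with the same letters in Actc1. Acta1 held 2 further boxes of the looser kind and Actc1 held 3. Among all 32851 promoter windows of the table, 1.63% held an exact box, 9.98% held a box of either kind and 0.822% held at least 2. A match describes the letters and does not show that SRF binds there.

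The targeted gene was not detectably lower. Srf had a mean log2 value of 10.30 ± 0.17 in controls (SD, n = 4) and of 10.10 ± 0.38 in mutants, a difference of -0.20 (limma SE 0.19, adjusted p = 0.686). Srf read 10.52, 10.20, 10.15 and 10.34 in controls 1 to 4 and 10.21, 9.54, 10.32 and 10.34 in mutants 1 to 4. Mutant 2 was the lowest, and in set 2 neither mutant lay below both controls. Where the Srf probe set lies relative to the deleted part is not known from the labels, so these values do not check the deletion. As a check of the tissue, the smooth muscle markers were bright in every array, with a mean log2 value of 13.99 to 14.05 in controls and 13.57 to 13.92 in mutants. All 8 were lower in mutants, 3 of them at an unadjusted limma p under 0.05, and none passed the adjusted threshold. Of all 12176 genes tested, 6694 were lower and 5400 higher, with 4.6% lower and 5.8% higher at that p. Markers of other cells were higher. All 8 endothelial markers were higher (list means of 7.00 to 7.98 in controls and 7.64 to 9.81 in mutants), as were all 7 of fibroblasts (9.52 to 10.98 and 11.05 to 11.29), all 8 of leukocytes (5.68 to 6.52 and 6.55 to 7.83) and all 4 tested of fat (9.26 to 10.88 and 9.62 to 12.97). None of them passed the adjusted threshold, and 0 of the 27029 probe sets tested did. At an unadjusted limma p under 0.05, 6 of 8 endothelial and 7 of 7 fibroblast markers were higher. So were 7 of 8 leukocyte and 0 of 4 fat markers, against 5.8% of all genes tested. Markers of one cell type can vary together, so they are not separate readings. The endothelial, fibroblast and leukocyte markers were higher in each set, but the 4 of fat were higher in set 1 and lower in set 2, where their list means were 10.88 and 10.55 in controls and 9.62 and 10.68 in mutants. The part of these cells in the actin values was not tested. In whole-tissue RNA, fewer smooth muscle cells and less RNA per cell cannot be told apart. Mutant 2 stood apart from the rest, with a median correlation of 0.934 with the other arrays across the tested probe sets, against 0.969 to 0.975 for the others.

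None of the 9 actin probe sets passed an adjusted p of 0.05 between mutant and control aorta in limma, and 0% of the 27029 probe sets tested did. The 9 fell into 3 kinds. The brightest probe sets of Acta2, Actb and Actg1 hardly varied between arrays. The 2 dimmer probe sets of Acta2 and the probe set of Actg2 had mutant means of 58.5% to 62.3% of control. The probe sets of Acta1, Actc1 and the dimmer one of Actb varied between arrays, and the 95% confidence intervals of their differences spanned 0. Those of the second kind lay below 0 before adjustment, though these probe sets too varied within a group by more than the groups differed. The kinds were drawn from these same values. In all, 7 of 9 had a difference below 0, where 59.9% of all probe sets tested did; the alternatives gave 5 to 9. In none of the 9 did all 4 mutants lie below all 4 controls, or above, which 1.57% and 1.43% of all probe sets tested did. At an unadjusted limma p under 0.05, 3 of 9 were lower and 0 higher, against 5.05% and 4.5% of all probe sets tested. The count of 3 became 1 without control 1, control 4 or mutant 3, 2 without control 3 or mutant 4, and 4 without mutant 2. Among all probe sets tested, 1364 were lower and 1216 higher at that p, a split of 1666 and 955 once each array was centred on its median. The median difference of the 9 was -0.13 on the log2 scale, and that of all probe sets tested -0.04. The median of the 9 was -0.22 in set 1 alone, -0.48 in set 2 alone and -0.42 with array weights. It became -0.02 without mutant 1, -0.07 without control 2, -0.25 without control 1, -0.28 without mutant 4 and -0.38 without mutant 2.

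**Figure D1:**
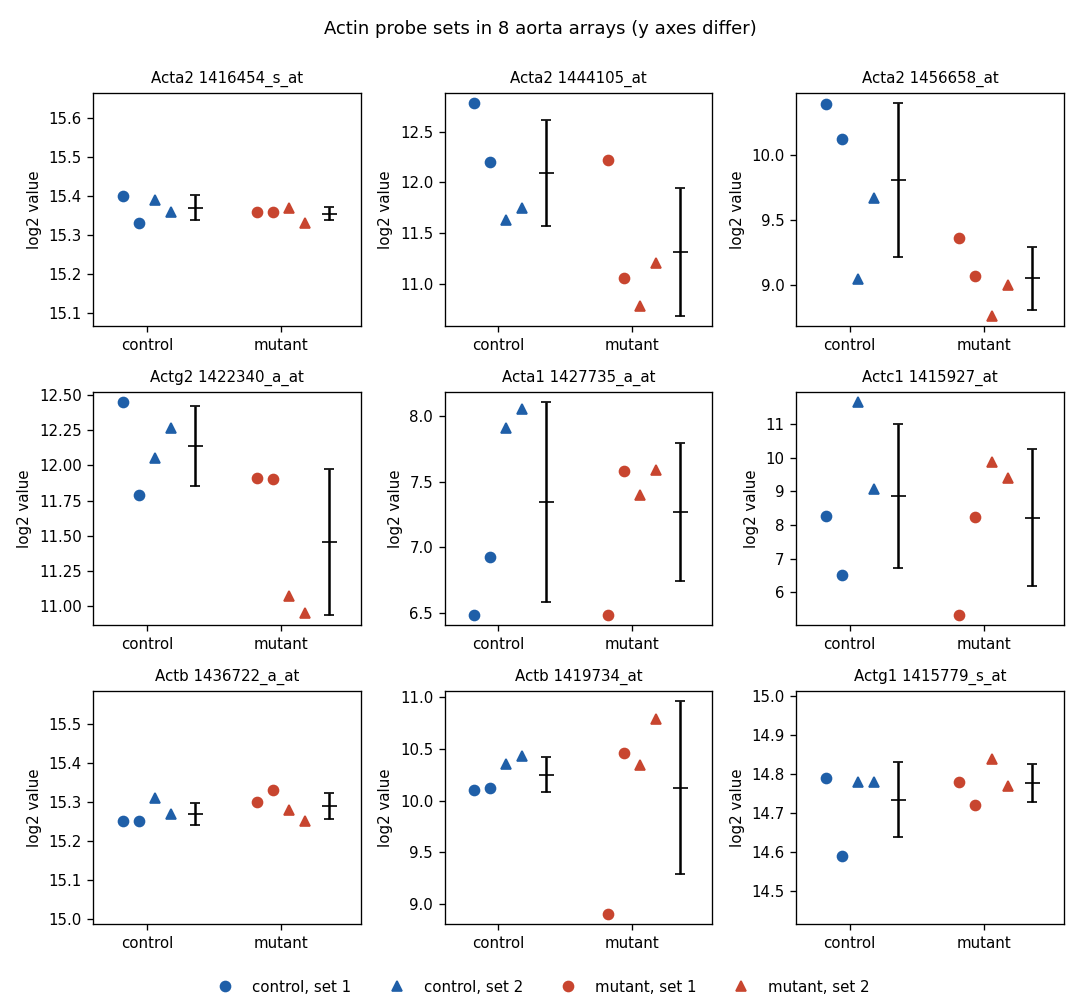
The log2 value of each of the 9 actin probe sets in each of the 8 arrays, with controls in blue, mutants in red, circles for set 1 and triangles for set 2. Black bars are the group mean and SD (n = 4), and the y axes differ between panels. The 2 dimmer Acta2 probe sets and Actg2 lie lower in most mutants, with groups that overlap, while the brightest Acta2 probe set stays between 15.33 and 15.40.

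Of the smooth muscle actins, Acta2 gave different readings in its 3 probe sets, and the differences between these were not tested. The brightest, 1416454_s_at, was the 4th brightest probe set of the whole table. It read 15.40, 15.33, 15.39 and 15.36 in controls 1 to 4 and 15.36, 15.36, 15.37 and 15.33 in mutants 1 to 4. No array was apart from the others, and the difference was -0.02 (SE 0.05, 95% confidence interval -0.13 to 0.10, limma adjusted p = 0.912).

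The second probe set of Acta2, 1444105_at, read 12.78, 12.20, 11.63 and 11.75 in controls 1 to 4 and 12.22, 11.06, 10.78 and 11.21 in mutants 1 to 4. Mutants 2, 3 and 4 lay below all controls, and mutant 1 lay above 3 of them. The control mean was 12.09 ± 0.52 and the mutant mean 11.32 ± 0.63 (SD, n = 4). The difference of -0.77 (SE 0.27, 95% confidence interval -1.40 to -0.14) put mutants at 58.5% of control, and it did not pass (limma adjusted p = 0.477). It was -0.85 in set 1 and -0.70 in set 2, and -0.53 without mutant 2.

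The third probe set of Acta2, 1456658_at, read 10.40, 10.13, 9.04 and 9.67 in controls 1 to 4 and 9.36, 9.07, 8.76 and 9 in mutants 1 to 4. Control 3 lay below mutants 1 and 2, so the groups overlapped. Within each set both mutants lay below both controls, which held for 1 of the 9 actin probe sets and for 6.17% of all probe sets tested. The control mean was 9.81 ± 0.60 and the mutant mean 9.05 ± 0.25. The difference was -0.76 (SE 0.19, 95% confidence interval -1.21 to -0.31), or 58.9% of control, and did not pass (limma adjusted p = 0.406). A two-sided exact permutation test within sets gave p = 0.0556 for this probe set, the smallest that the 36 arrangements allow. This exact permutation test gave p = 0.111 for 1444105_at, and for Actg2 the exact permutation test gave p = 0.167. Every other actin probe set had an exact permutation test p of 0.5 or more. The difference of 1456658_at was -1.05 in set 1 and -0.48 in set 2. It was negative under all 18 alternatives, from -1.05 to -0.48, with adjusted p from 0.11 to 0.935.

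The annotation ties the brightest of the 3 probe sets to the RefSeq messenger RNA of Acta2 and the dimmer ones to other GenBank sequences. No source used here gives their place on the gene. In the manufacturer's naming, the ending s_at marks probes that match several transcripts, which can belong to different genes, so the reading of 1416454_s_at as Acta2 alone is uncertain.

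Actg2 read 12.45, 11.79, 12.05 and 12.27 in controls 1 to 4 and 11.91, 11.90, 11.07 and 10.95 in mutants 1 to 4. Mutants 3 and 4 lay below all controls, and mutants 1 and 2 lay above control 2. The control mean was 12.14 ± 0.28 and the mutant mean 11.46 ± 0.52 (SD, n = 4). The difference of -0.68 (SE 0.23, 95% confidence interval -1.22 to -0.15) put mutants at 62.3% of control and did not pass (limma adjusted p = 0.469). It was -0.22 in set 1 and -1.15 in set 2. The difference between the sets, -0.94 (SE 0.30), did not pass an interaction test either (limma adjusted p = 0.824), nor did that of any other actin probe set, where 0.0518% of all probe sets tested passed. The genotype difference ranged from -0.91 without control 2 to -0.55 without control 4.

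**Figure D2:**
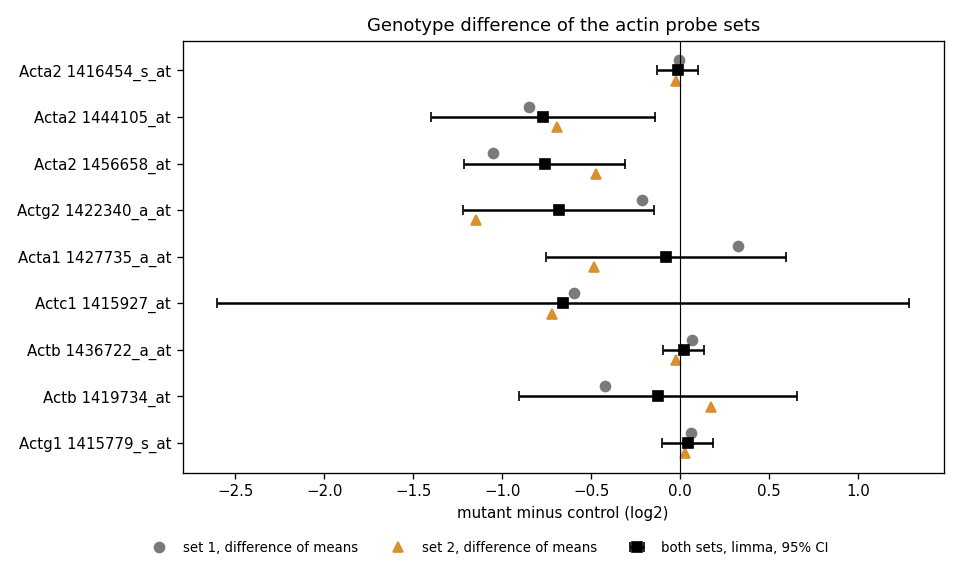
Mutant minus control on the log2 scale for each actin probe set, with black squares and bars for the limma estimate over both sets and its 95% confidence interval. Grey circles and orange triangles are the differences of means in set 1 and set 2. The intervals of 1444105_at and 1456658_at (Acta2) and of Actg2 lie below 0 before adjustment, and Actg2 is at -0.22 in set 1 and -1.15 in set 2.

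The probe sets of both striated muscle actins passed the filter on dim probe sets and differed more between arrays of one group than between groups. Passing that filter is not a test of whether the gene is expressed. Actc1, the heart actin, read 8.26, 6.50, 11.66 and 9.06 in controls 1 to 4 and 5.33, 8.24, 9.88 and 9.40 in mutants 1 to 4. From mutant 1 to control 3 this is a range of 6.33 on the log2 scale, or 80.4-fold. Among probe sets within 0.5 log2 units of its brightness, 99.7% had a smaller residual SD. The genotype difference was -0.66 (SE 0.82, 95% confidence interval -2.60 to 1.29, limma adjusted p = 0.757). It was -0.09 without mutant 1, -0.13 without control 3, -0.32 without control 1, -1.02 without control 2, -1.17 without control 4 and -1.25 without mutant 2.

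Every array of set 2 read higher for Actc1 than every array of set 1, as for 19.7% of all probe sets tested. The set means were 7.08 and 10, and the difference of 2.92 (SE 0.82) passed (limma adjusted p = 0.0462). Of the 9 actin probe sets it was the only one to pass in this comparison, where 21.4% of all probe sets tested did. It no longer passed with no filter on dim probe sets (adjusted p = 0.0695) or when any array other than mutant 2 was left out (lowest adjusted p there 0.0514, without control 4). Without mutant 2, 4 of the 9 passed, with Acta1 and the dimmer probe sets of Acta2 beside Actc1. With array weights 5 passed, these 4 and the dimmer probe set of Actb (adjusted p = 0.0323). Median centring added Acta1 (adjusted p = 0.0339) and a filter that dropped the lowest 60% added 1456658_at of Acta2 (adjusted p = 0.0436), while without control 2 the only one to pass was Actg2 (adjusted p = 0.0365).

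The heart muscle list was higher in set 2 as well. Its mean over 10 genes was 4.24 to 5.32 in set 1 and 6.82 to 9.23 in set 2, and control 3 was highest, as it was for Actc1. Of single genes, Myh6, the atrial and adult ventricular myosin heavy chain of the mouse heart, read 4.41, 7.52, 4.49 and 7.66 in controls 1 and 2 and mutants 1 and 2. Actc1 did not follow these within set 1: control 1 had the highest Actc1 of that set, at 8.26, with Myh6 at 4.41. In set 2 Myh6 read 11.54, 9.77, 11.15 and 10.46 in controls 3 and 4 and mutants 3 and 4, the same order as Actc1. Myl7, an atrial myosin light chain, read 10.73 in control 3 and 2.23 to 3.72 in the other 7 arrays. Between genotypes 6 of the 10 genes were lower and 4 higher, and none passed. The part of heart tissue in the Actc1 values was not tested.

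Acta1, the skeletal muscle actin, read 6.49, 6.93, 7.91 and 8.05 in controls 1 to 4 and 6.49, 7.58, 7.40 and 7.59 in mutants 1 to 4. Control 1 and mutant 1 shared the lowest value, and controls 3 and 4 lay above all mutants. In set 1 the groups overlapped, and in set 2 both mutants lay below both controls. The difference was -0.08 (SE 0.28, 95% confidence interval -0.75 to 0.59, limma adjusted p = 0.922), with 0.33 in set 1 and -0.49 in set 2. It was 0.06 without mutant 1, 0.03 without control 4, 0.04 without mutant 3 and -0.38 without mutant 2. Acta1 read 0.87 higher in set 2 (SE 0.28), which did not pass (limma adjusted p = 0.0716) but did without mutant 2 (1.16, adjusted p = 0.00273). Of 10 skeletal muscle markers only 4 were bright enough to be tested, and their mean was 3.10 to 4.05 over the 8 arrays. Ckm, the muscle creatine kinase, read 5.83 in control 3 and 2.21 to 3.81 in the others.

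**Figure D3:**
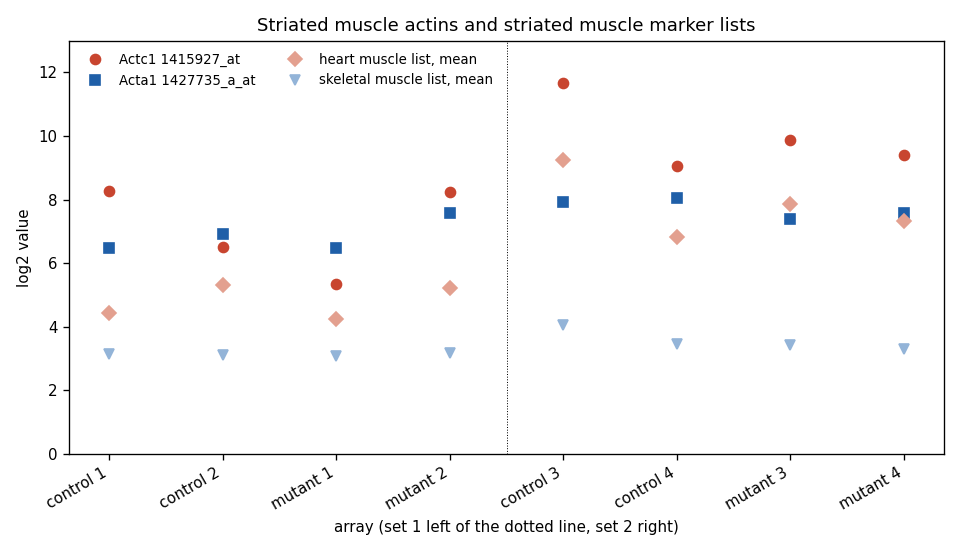
Log2 values of Actc1 (red circles) and Acta1 (blue squares) in each array, beside the mean of the heart muscle list (10 genes, pale red diamonds) and of the 4 tested genes of the skeletal muscle list (pale blue triangles). Actc1 and the heart list are higher in set 2, right of the dotted line, and highest in control 3, while in set 1 control 1 has Actc1 at 8.26 and the heart list at 4.42.

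The cytoplasmic actins showed no difference beyond the spread between arrays. The brighter probe set of Actb, 1436722_a_at, the 5th brightest of the table, read 15.25, 15.25, 15.31 and 15.27 in controls 1 to 4 and 15.30, 15.33, 15.28 and 15.25 in mutants 1 to 4. The arrays spanned 0.08 on the log2 scale, and the difference was 0.02 (SE 0.05, 95% confidence interval -0.10 to 0.14, limma adjusted p = 0.883). The dimmer probe set, 1419734_at, which the annotation ties to the RefSeq messenger RNA, read 10.10, 10.12, 10.35 and 10.43 in controls and 8.91, 10.46, 10.34 and 10.79 in mutants. Mutant 1 was the lowest of all arrays and mutant 4 the highest. The difference was -0.13 (SE 0.33, 95% confidence interval -0.91 to 0.66, adjusted p = 0.893), and 0.25 without mutant 1.

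Actg1 read 14.79, 14.59, 14.78 and 14.78 in controls 1 to 4 and 14.78, 14.72, 14.84 and 14.77 in mutants 1 to 4. Control 2 was the lowest, and the other 7 arrays lay within 14.72 to 14.84. The difference was 0.04 (SE 0.06, 95% confidence interval -0.10 to 0.19, limma adjusted p = 0.789). Centring each array on its median turned its sign (-0.03) and that of the brighter Actb probe set (-0.05). The probe set of Actg1 also ends in s_at, so its reading as Actg1 alone is uncertain.

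Above a mean of 12, brighter probe sets had a smaller spread, which bears on the 3 brightest actin probe sets. The residual SD in the fit had a median of 0.16 among the 528 probe sets with a mean of 12 to 13, 0.07 among the 130 with a mean of 14 to 15 and 0.05 among the 17 above 15. The largest genotype difference of either sign was 1.54 in the first of these classes, 0.45 in the second and 0.29 in the third. The last was that of Tagln, with means of 15.32 in controls and 15.03 in mutants. A maximum also depends on how many probe sets a class holds. The median difference regardless of sign was 0.12, 0.055 and 0.065 in the same order. The brightest Acta2 and Actb probe sets had residual SDs of 0.03, and Actg1 of 0.07. The highest value in the table was 15.82. A difference in the abundance of these messengers may be compressed at this brightness, which was not tested. The other 6 actin probe sets had larger spreads than most of equal brightness, from 84.3% for 1456658_at to 99.7% for Actc1.

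**Figure D4:**
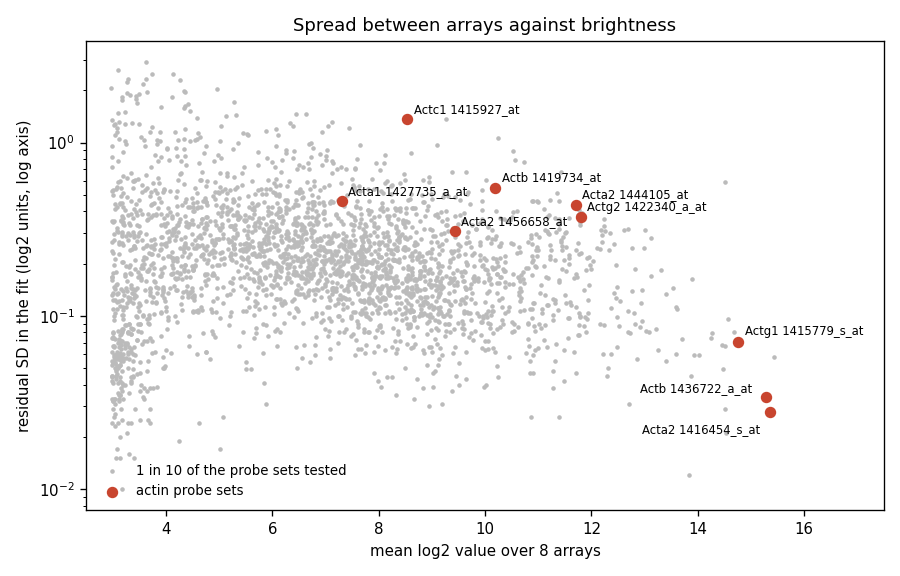
Residual SD of each probe set in the limma fit (log axis) against its mean log2 value over the 8 arrays, for 1 in 10 of the probe sets tested (grey) and the 9 actin probe sets (red). The brightest probe sets of Acta2 and Actb have SDs of 0.03, and Actc1 has an SD of 1.36.

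Genes with which actins work were taken from a list arranged by role, each through its brightest probe set. None of these genes passed an adjusted p of 0.05. Among all 12176 genes tested the median difference was -0.02, 55% were lower, and at an unadjusted limma p under 0.05 4.6% were lower and 5.8% higher. Of SRF and its cofactors, 3 of 4 were lower, with 0 lower and 1 higher at that p. By set, 3 were lower and 1 higher in set 1, and 1 was lower and 3 higher in set 2. The myocardin-related factor gene Mrtfb differed by 0.22 (SE 0.09) and Myocd, which encodes myocardin, by -0.25 (SE 0.17). Myocd was 1.37 higher in set 2 (limma adjusted p = 0.00296), a comparison that 21.4% of all probe sets tested passed. Between the sets the brightest Acta2 probe set differed by 0, and both dimmer ones read lower in set 2 (-0.72 and -0.62). Neither of the dimmer ones passed in the fit of all arrays (limma adjusted p = 0.0113 and 0.0292 without mutant 2). A link between Myocd and these values was not tested.

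Of 15 tested genes for folding and maturation of actin, 13 were lower with a median of -0.07, and 0 were past that unadjusted p in either direction. The lowest p belonged to the chaperonin subunits Cct7 (0.12, SE 0.05) and Tcp1 (-0.11, SE 0.07). Of 12 genes for monomer binding and turnover, 6 were lower, 5 higher and 1, Tmsb4x, equal in both means, with 2 lower and 3 higher at that p. The count of 2 became 4 without mutant 1, 1 in set 2 alone and 0 in set 1 alone. Tmsb10, a thymosin that binds actin monomers, differed by 0.37 (SE 0.10) and Cfl2, the muscle cofilin that severs filaments, by -0.39 (SE 0.11). Of 15 genes for nucleation and elongation, 12 were lower with a median of -0.17, 2 of them at that p and 1 without control 1 or mutant 3. The 2 were Vasp, which lengthens filaments at their growing end (-0.55, SE 0.15), and the formin gene Diaph2 (-0.31, SE 0.11).

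Among the 11 partners of the smooth muscle filament, 10 were lower with a median of -0.15, and 5 were lower at an unadjusted p under 0.05. That count rose to 8 when mutant 1 was left out or arrays were weighted, and was 1 in set 1 alone. Their mean level was 14.46 to 14.54 in controls and 14.21 to 14.40 in mutants, 2 ranges that do not overlap. Among single probe sets tested, all 4 mutants lay below all 4 controls in 1.57%. No such share was computed for list means, and genes that vary together do not make 11 separate readings. Myh11, Tagln, Cnn1, Smtn, Myl9 and Cald1 are in the smooth muscle marker list too. Myh11, the smooth muscle myosin heavy chain, differed by -0.21 (SE 0.05). Tagln differed by -0.29 (SE 0.05), and 1 of its alleles carries the Cre in mutants; the part of that insertion was not tested.

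For each actin gene, the 3 genes most like it in pattern were found by the Pearson correlation over the 8 arrays after the mean of each set was removed, using its brightest probe set with a mean under 14 or, for Actg1, its only one. With 8 arrays and 12176 genes, high values are found for any probe set, and these are descriptions. Acta2 (1444105_at) was most like Qsox1 (r = 0.99), Shb (0.988) and Capza2 (0.987). Qsox1, a sulfhydryl oxidase, differed by -0.68 (SE 0.21) and Capza2, a subunit of the protein that caps actin filaments, by -0.19 (SE 0.07). Actg2 was most like Qtrt2 (r = 0.957), Amz2 (0.953) and Jmjd6 (0.947). Actc1 was most like Robo1 (r = 0.952), 5730455P16Rik (0.949) and Epm2aip1 (0.91). No gene of the heart muscle list was among the 3. Removing the mean of each set also took out the difference between sets that Actc1 shared with that list. The part of heart tissue in the Actc1 values was therefore not tested by this search. Acta1 was most like Pelo (r = 0.991), Actb most like Tmem177 (0.969) and Actg1 most like Eda (0.984).

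**Figure D5:**
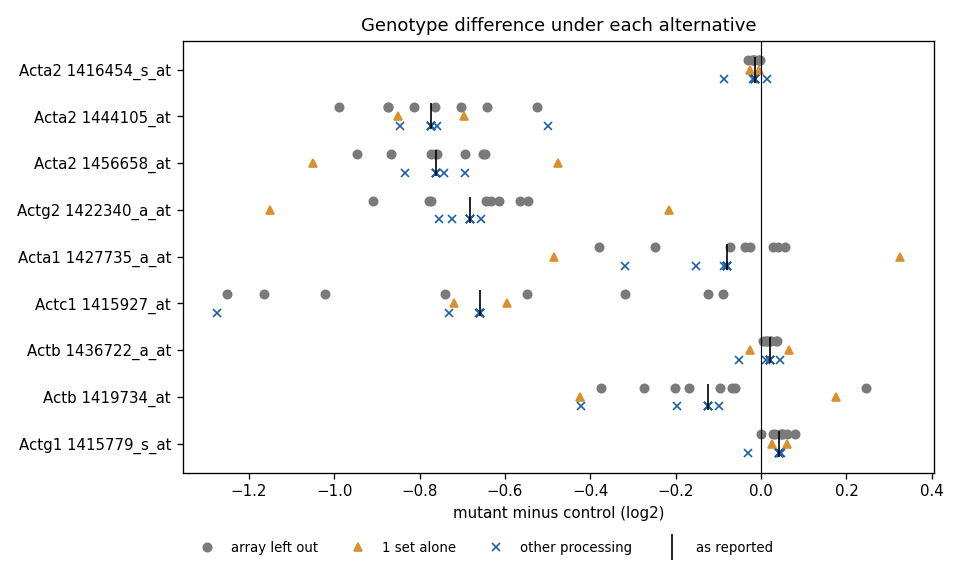
Mutant minus control on the log2 scale for each actin probe set as reported (black bar), with each array left out (grey circles), in 1 set alone (orange triangles) and under other processing (blue crosses). The 2 dimmer Acta2 probe sets, Actg2 and Actc1 stay below 0 in all 18 alternatives, from -1.27 to -0.09, while Acta1 and the dimmer Actb probe set lie on both sides of 0.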

How the data were processed

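Per the labels' protocols, mouse aorta RNA (2 ug an array, from a fibrous tissue kit) was turned into biotinylated cRNA for Affymetrix arrays. The authors deposited log2 values per probe set. The submitters' processing notes name GCOS; background correction and normalization: not given in the sources used here. That the scale is log2 follows from the range of values, 0.9 to 15.82. The arrays had medians of 3.72 to 3.98, with mutant 2 at 3.98 and the others at 3.72 to 3.83. Their scales were thus close but not equal. That spread is wider than the genotype differences of the brightest Acta2, Actb and Actg1 probe sets. The number of arrays limits the precision.

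Values were used as deposited. Probe sets were named through the platform annotation when it gave 1 symbol. Probe sets whose mean fell in the lowest 40% were left out (lowest mean kept 2.97). Genotype and title set were terms of a limma fit with a mean-variance trend (limma 3.58.1, R 4.3.3). Tests were two-sided with Benjamini-Hochberg adjustment over all 27029 probe sets at 0.05. SE is limma's moderated standard error. Differences are mutant minus control. The procedure was tested on simulated data whose noise was normal and drawn separately for each probe set. Genes that vary together and an array that stands apart were not simulated, so that test does not cover them.

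Replicates were numbered in sample order within a group, so equal numbers pair nothing. The set of the titles is the block. Every probe set of the 6 genes is reported, and in each role list the 2 genes with the smallest p are named. Other genes given with values were chosen after those were seen. The members, lists and alternatives were chosen with earlier results of these data known. A planned comparison of 3′ and 5′ control probe sets was not made, since 0 probe sets in the table used have a name starting with AFFX. A planned exact permutation test of the difference per array between probe sets of one gene was not made either. Figures were drawn with Python 3.11.15.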

Additional observations from a re-analysis of the deposited data

Results flagged for a closer look

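Control 2 of Actg1, at 14.59, lay below the other 3 controls (14.78 to 14.79) by a gap wide enough, relative to the range of the group, to stand out in Dixon's test. Such a gap arises by chance in about 1 of 20 groups, and 18 groups were examined. Without control 2 the Actg1 difference was -0.001 in place of 0.04, and neither value passed.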

How the results depend on the processing

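Under all 18 alternatives, 0 actin probe sets passed an adjusted p of 0.05, and the signs of 1444105_at and 1456658_at (Acta2), Actg2 and Actc1 stayed negative. Without the set term as a replicate block, 1279 probe sets of the table had an unadjusted p under 0.05, against 2580. In set 2 alone there were 1470, and with each array left out 1433 to 2935. At an adjusted p under 0.05 there were 10 with array weights, and 0 to 11 with each array left out (11 without control 3). The count of actin probe sets lower at an unadjusted p under 0.05 was 1 in set 1 alone and 1 to 4 with each array left out. Signs turned for small differences. Quantile normalization gave 0.015 for the brightest Acta2 probe set and 0.011 for the set difference of the brighter Actb probe set. Median centring gave -0.053 for the brighter Actb probe set, 0.093 for its set difference and -0.03 for Actg1. Set 1 alone gave 0.33 for Acta1. Set 2 alone gave -0.025 for the brighter and 0.18 for the dimmer Actb probe set. With each array left out, the differences ran from -0.38 to 0.057 for Acta1, -0.38 to 0.25 for the dimmer Actb probe set and -0.001 to 0.079 for Actg1, and the set difference of the brighter Actb probe set from -0.022 to 0.01. The causes were not tested.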
